A study of Homo sapiens with 49 samples.

Results

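Broad H3K4me3 domains are stretches of the genome where the promoter mark H3K4me3 runs on for 2000 bp or more without a break. They were selected on width alone, as peaks of 2000 bp or wider (end minus start) on chromosomes 1 to 22 and X in the H3K4me3 lists of DMSO-treated Ishikawa or T-47D cells. Overlapping ones were merged, which gave 1239 domains among 35871 merged H3K4me3 regions of both lines. Of these, 121 held a wide peak in both lines, 978 in Ishikawa alone and 140 in T-47D alone. These classes are called shared, Ishikawa-class and T-47D-class domains here.

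The peak lists come from ChIP-seq of Ishikawa, a human endometrial adenocarcinoma line, and T-47D, a human breast carcinoma line, both of which carry estrogen receptor α. Cells were kept in hormone-depleted medium and given 17β-estradiol (E2, 10 nM) or its solvent DMSO. Treatment lasted 8 h for H3K4me3, H3K4me1 and H3K27me3, and 1 h for c-JUN, LSD1, MAX, c-MYC, RARA, TAF1 and, in T-47D alone, RNA polymerase II (labelled Pol2, here RNAPII). SIN3A was mapped in stripped and in full media, and H3K36me3 once in Ishikawa. There were 21 lists from Ishikawa and 24 from T-47D. Except for RNAPII, with 2 libraries per treatment, each target and treatment was 1 library, so the shares below have no replicate check, and their exact (Clopper-Pearson) 95% intervals cover counting error only. Each line is a single cultured line, and a list averages over many cells, so a wide peak in all cells and in some of them cannot be told apart.

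H3K4me3 is laid down by the SET1 and MLL methyltransferases at CpG-rich promoters, and usually forms a peak on either side of the start site with a nucleosome-depleted dip between them. At some genes the mark extends kilobases into the gene body. Such broad domains are known in many tissues at genes of cell identity, at some tumour suppressor genes and at very highly transcribed genes. H3K4me1 marks enhancers and the flanks of promoters, and H3K27me3 is the Polycomb mark of silenced genes. TAF1 is the largest subunit of TFIID, the complex that recognises core promoters, SIN3A is the scaffold of a histone deacetylase complex, and LSD1 removes H3K4 methylation from mono- and dimethylated histone.

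Several lists limit what can be read at the domains. The T-47D libraries labelled c-JUN resembled RNAPII more than c-JUN of Ishikawa. The base pairs that the list labelled c-JUN DMSO shared with RNAPII DMSO replicate 1 were 0.493 of those in either list (the Jaccard index), against 0.191 with Ishikawa c-JUN E2, and the RNAPII DMSO replicates had 0.272 between them. Peaks of 3 of the 4 H3K27me3 lists lay mostly on H3K4me3 peaks of the same line and treatment, at 81.7% for Ishikawa DMSO, 96.4% for Ishikawa E2 and 85.7% for T-47D DMSO. In T-47D E2 it was 4.04%, of a list of 107 peaks. A further 8 lists of fewer than 500 peaks on these chromosomes, and this one, were not counted by class. They were c-MYC DMSO and E2, RARA DMSO and H3K36me3 in Ishikawa, and LSD1 DMSO and E2, MAX DMSO and SIN3A in stripped media in T-47D. As for the labels of the lines, an H3K4me3 peak lay over a start site of PAX8, a Müllerian-lineage factor, in Ishikawa alone (3224 bp under DMSO), and over GATA3, the luminal breast factor, in T-47D alone under DMSO (3918 bp). Other luminal markers did not separate the lines in this way: TFAP2C, TFAP2A and TRPS1 had peaks in both lines, wider in T-47D, and ESR1 (1683 bp in Ishikawa and 983 bp in T-47D under DMSO) and PGR (2637 and 2227 bp) had wider ones in Ishikawa. HOXA10 (1641 bp) and EMX2 (1271 bp) had a peak over a start site in Ishikawa alone. SOX17, HOXA11, MSX1, FOXA1 and SPDEF, also used as lineage markers, had no peak over a start site in any H3K4me3 list.

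The 300 bases around the H3K4me3 summit are shown for the widest domain of the Ishikawa and T-47D classes with a protein-coding start site and for the widest domain of each class with no annotated start site, because they show how far the base composition at the summits of the widest domains ranged. All are on the + strand of GRCh37, with CpG dinucleotides in capitals.
Shared, intergenic near SOX4, chr6:21588373-21588672: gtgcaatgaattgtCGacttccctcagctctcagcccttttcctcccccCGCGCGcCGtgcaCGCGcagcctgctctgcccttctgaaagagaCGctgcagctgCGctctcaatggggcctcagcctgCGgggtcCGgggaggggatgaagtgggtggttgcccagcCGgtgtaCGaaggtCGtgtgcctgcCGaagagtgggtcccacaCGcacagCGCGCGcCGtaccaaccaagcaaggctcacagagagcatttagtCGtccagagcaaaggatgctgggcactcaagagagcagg
Ishikawa-class, intron of LDB1, chr10:103879615-103879914: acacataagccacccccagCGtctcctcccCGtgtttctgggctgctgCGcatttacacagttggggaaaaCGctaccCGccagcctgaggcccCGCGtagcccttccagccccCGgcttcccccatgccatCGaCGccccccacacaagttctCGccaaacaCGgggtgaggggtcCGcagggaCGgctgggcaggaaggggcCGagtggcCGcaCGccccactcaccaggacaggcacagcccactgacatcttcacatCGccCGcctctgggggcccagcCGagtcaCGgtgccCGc
Ishikawa-class, intron of LAMA5, chr20:60933863-60934162: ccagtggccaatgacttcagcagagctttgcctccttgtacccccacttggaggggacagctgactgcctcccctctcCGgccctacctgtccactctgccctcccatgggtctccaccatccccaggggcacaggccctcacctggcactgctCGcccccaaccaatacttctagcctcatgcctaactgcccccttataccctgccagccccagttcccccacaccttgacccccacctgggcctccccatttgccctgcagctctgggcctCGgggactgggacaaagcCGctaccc
T-47D-class, intron of RARA, chr17:38475228-38475527: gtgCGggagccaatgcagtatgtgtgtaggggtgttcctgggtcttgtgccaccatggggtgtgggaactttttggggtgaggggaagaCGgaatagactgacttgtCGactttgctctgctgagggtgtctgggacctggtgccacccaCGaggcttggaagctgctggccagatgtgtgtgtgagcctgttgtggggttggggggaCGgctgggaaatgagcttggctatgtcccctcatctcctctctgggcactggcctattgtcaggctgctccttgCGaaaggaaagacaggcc
T-47D-class, intron of KDM4B, chr19:4971482-4971781: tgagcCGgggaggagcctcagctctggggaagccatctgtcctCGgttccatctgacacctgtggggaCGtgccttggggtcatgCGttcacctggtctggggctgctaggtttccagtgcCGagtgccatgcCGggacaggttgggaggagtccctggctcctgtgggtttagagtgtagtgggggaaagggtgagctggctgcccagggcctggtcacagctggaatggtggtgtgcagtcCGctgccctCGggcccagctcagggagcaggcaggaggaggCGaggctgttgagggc
The windows held 21, 22, 4, 6 and 9 CpG dinucleotides in that order, so among the windows shown those in LAMA5, RARA and KDM4B were CpG-poor, and those near SOX4 and in LDB1 were not. The median over all Ishikawa H3K4me3 peaks was 19 and over all T-47D peaks 17.

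Wide peaks were more common in Ishikawa, at 1100 of 29594 H3K4me3 peaks (3.72%), than in T-47D, at 261 of 30769 (0.848%). They held 11.1% of the base pairs under H3K4me3 in Ishikawa and 3.72% in T-47D. The median peak was 662 bp wide in Ishikawa and 431 bp in T-47D, and 105 and 30 peaks reached 3000 bp. The widest single domain was the shared one at BCL9L, of 6464 bp. Domain width had a median of 2691 bp in the shared class, 2236 bp in the Ishikawa class and 2243 bp in the T-47D class. Most domains therefore lay near the width that selected them. The narrowest member in Ishikawa was a 2000 bp peak at MYO5B with a fold enrichment of 26.5 over background at its summit, and the widest peak left out was 1999 bp at RNASEH1 with 17.4. In T-47D the same pair was 2001 bp at ZNF790 and ZNF345 (17.9) and 1998 bp at ITPA (15.7). Wide peaks were also higher, with a median fold enrichment of 22.8 against 14.9 for narrower peaks in Ishikawa and 15.5 against 10.7 in T-47D.

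**Figure D1:**
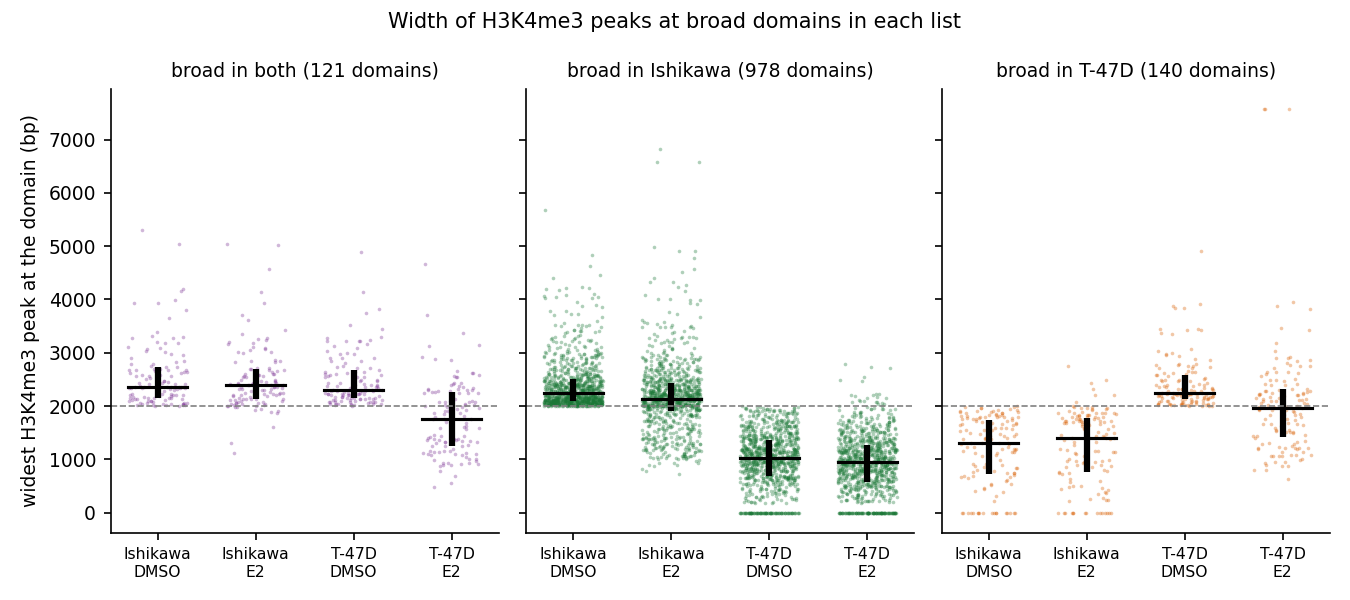
Widest H3K4me3 peak at each broad domain (bp, y axis) in the 4 H3K4me3 lists, with 1 panel per class, 1 point per domain, a black line for the median and a bar for the quartiles. The dashed line marks 2000 bp, the width in the DMSO lists that selected the domains, points at 0 are domains with no peak in that list, and most T-47D peaks at Ishikawa-class domains lie below the line.

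The class of a domain depended on short breaks in the T-47D list. In T-47D, 785 of the 978 Ishikawa-class domains (80.3%) carried H3K4me3 as 2 or more separate peaks, and 87 carried none. The 1265 gaps between these peaks had a median of 170 bp (interquartile range 112 to 263 bp), and 94.5% were no longer than 500 bp. A protein-coding start site lay in a gap in 482 of the 785 broken domains (61.4%, 57.9% to 64.8%). Peaks of RNAPII DMSO replicate 1 covered 80.7% of the gap length, and of replicate 2 49.7%, where these libraries covered 60.9% and 27.4% of all base pairs of Ishikawa-class domains. In the reverse direction the breaks were rare: 25 of the 140 T-47D-class domains were broken in Ishikawa, and 1 of these had a coding start site in a gap.

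When gaps of up to 500 bp were joined before widths were taken, the classes became 1361 shared, 1297 Ishikawa and 861 T-47D domains. Of the 978 Ishikawa-class domains, 554 (56.6%, 53.5% to 59.8%) then met a T-47D peak of 2000 bp or wider, and the median of the widest T-47D peak went from 1032.5 to 2091 bp. Of the 140 T-47D-class domains, 38 (27.1%, 20% to 35.3%) met one in Ishikawa, with medians of 1309.5 and 1732.5 bp. The median fold enrichment of all H3K4me3 peaks was 15.2 in Ishikawa and 10.8 in T-47D. The lists give no sequencing depth, and the part of either in the number of breaks was not tested. "Ishikawa-class" below therefore means an unbroken wide peak in Ishikawa and none in T-47D, and for 8.90% of the class it means that T-47D had no H3K4me3 peak at all.

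**Figure D2:**
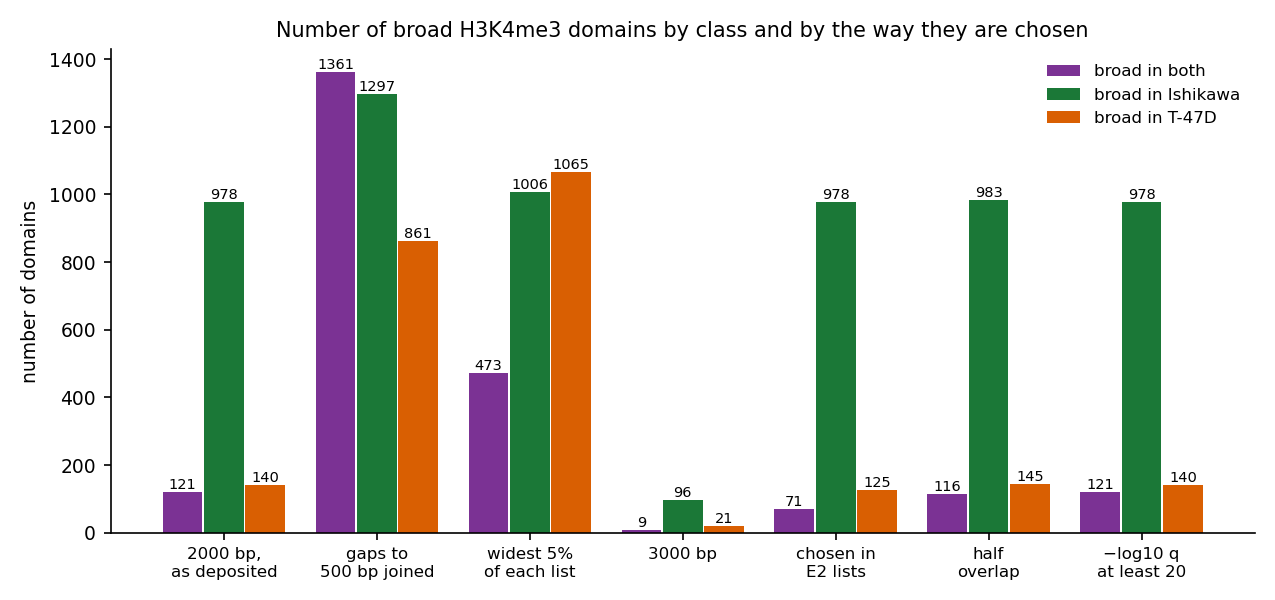
Number of broad domains per class (bars, y axis) with the lists as deposited and under 6 other ways of choosing them (x axis), namely joined gaps, the widest 5% of each list, a minimum of 3000 bp, the E2 lists, a half-overlap between lines and a stricter −log10 q. The shared class held 121 domains as deposited and 1361 with gaps joined, where it was the largest class.

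A minority of domains met no H3K4me3 peak of the other line. How often all H3K4me3 peaks of a line met none in the other was not counted, so the shares below have no background. No T-47D peak met 87 of the 978 Ishikawa-class domains (8.90%), of which 35 held a coding start site, and none of the 87 had a T-47D peak under E2 either. They included ADAMTS1 (3792 bp), a secreted metalloproteinase, the glucose transporter gene SLC2A1 (3667 bp), PAX8 (3224 bp), the lactate transporter gene SLC16A3 (2895 bp), and the developmental regulators GFI1 (3187 bp), EYA4 (3031 bp) and GLI2 (2418 bp). The fatty acid desaturase genes FADS1 and FADS2 shared a domain of 2466 bp. In the T-47D class, 18 of 140 domains (12.9%) had no Ishikawa peak under DMSO, 10 of them with a coding start site, and 13 had none under E2. GATA3 accounted for 3 of the 10. The others were KRT19, a luminal keratin (2350 bp), TGFB3, a TGF-β ligand (2597 bp), ZNF462 (2499 bp), the pair ADIRF and MMRN2 (2236 bp), the adhesion gene CADM1 (2069 bp), ZNF667 (2031 bp) and the nucleotide receptor gene P2RY6 (2002 bp). Absence here is of the domain and not of the gene. KRT19 had an Ishikawa DMSO peak of 1299 bp over a start site outside its domain.

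The widest domains differed in what each line and treatment showed. BCL9L, a coactivator of β-catenin, headed the shared class, where the widest peak was 3924 bp in Ishikawa DMSO, 4141 bp in Ishikawa E2, 4894 bp in T-47D DMSO and 4672 bp in T-47D E2. ZNF503, a zinc finger repressor, had 5307 and 5026 bp in Ishikawa but 2251 and 1376 bp in T-47D. TNS2, a focal adhesion protein, was narrower under E2 in both lines, from 3272 to 2036 bp in Ishikawa and from 3024 to 1162 bp in T-47D, each from 1 library. ANP32A, a histone-binding inhibitor of PP2A, held 5039 and 5032 bp in Ishikawa, and 3217 and 1340 bp in T-47D. ESRP1, the epithelial splicing factor, was the fifth, with 4160 and 2004 bp in Ishikawa and 2265 and 2294 bp in T-47D. In these 5 domains the widest T-47D E2 peak was below 2000 bp in 3, ZNF503, TNS2 and ANP32A, where T-47D E2 peaks covered 3424, 2833 and 4253 bp in pieces.

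In the Ishikawa class, LDB1, an adaptor that links LIM proteins at enhancers and promoters, was widest among domains with a coding start site. Its peak was 4837 bp under DMSO and 4917 bp under E2, and in T-47D the widest was 1726 and 1715 bp. T-47D H3K4me3 nevertheless covered 4156 bp of this domain in pieces. NHERF2, a membrane scaffold protein, measured 4619 and 4916 bp in Ishikawa against 1463 and 911 bp in T-47D. ZIC2, a neural zinc finger factor, measured 4464 bp under DMSO and 2299 bp under E2 in Ishikawa, with 4180 bp covered in pieces, and MAML3, a Notch coactivator, 4399 and 4330 bp, with at most 594 bp in a T-47D peak, although T-47D H3K4me3 covered 3147 and 2820 bp of this domain in pieces. The domain over TNFRSF12A, the TWEAK receptor gene, with HCFC1R1 and THOC6, measured 4227 and 4232 bp. The widest domain of the class had no annotated start site and lay inside LAMA5, a laminin chain gene, at chr20:60929667-60935342. It measured 5676 bp under DMSO and 2928 bp at most under E2, when 5443 bp were covered, and had no T-47D H3K4me3, while T-47D RNAPII covered 5474, 586, 3116 and 810 bp of it in DMSO replicates 1 and 2 and E2 replicates 1 and 2. Ishikawa c-JUN E2 ran over 5652 bp of this domain in 1 peak with a fold enrichment of 39.3.

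In the T-47D class, RARA, the retinoic acid receptor that was itself mapped in the study, was widest at chr17:38474482-38479396. The peak was 4915 bp under DMSO and 1540 bp at most under E2, when pieces covered 4456 bp of the domain, and the widest Ishikawa peaks were 884 and 1803 bp. RNAPII covered 3872 and 1577 bp of the RARA domain under DMSO and 4915 and 4529 bp under E2, so both E2 libraries lay above both DMSO libraries, with 2 libraries in each group and 0.333 as the smallest p that an exact permutation test can give. GATA3 followed at chr10:8086994-8090911 with 3918 and 3877 bp in T-47D, and 0 and 235 bp in Ishikawa. RNAPII covered 3918, 3770, 3918 and 3401 bp of it in the 4 libraries. Next were the domain of HOXC6 and HOXC9 (3876 bp under DMSO, 2515 bp under E2), AHNAK, a giant scaffold protein (3843 and 3811 bp), and TRIL, a Toll-like receptor accessory protein (3835 and 2611 bp). The widest domain with no start site lay in KDM4B, a histone demethylase gene, at chr19:4969659-4973076, with 3418 bp under DMSO and 1064 bp at most under E2, when 2701 bp were covered.

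Start sites lay in most domains. A protein-coding start site (GENCODE release 44) lay inside 1062 of 1239 domains (85.7%, 83.6% to 87.6%), and any annotated start site inside 1140 (92.0%). By class it was 93.4% (87.4% to 97.1%) of shared, 86.6% (84.3% to 88.7%) of Ishikawa-class and 72.9% (64.7% to 80.0%) of T-47D-class domains. All H3K4me3 peaks stood at 41.3% in Ishikawa and 30.9% in T-47D, where a shorter peak has less room for a start site. Counting starts within 250 bp moved the domains to 88.4%, and all peaks to 55.7% and 56.1%. Wide peaks thus exceeded all peaks in both lines under either count. At least 2 coding genes started in 28.1% of shared, 26% of Ishikawa-class and 10.7% of T-47D-class domains. Among domains with exactly 2, the genes pointed away from each other in 11 of 31 shared, 107 of 236 Ishikawa-class and 3 of 13 T-47D-class domains.

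Domains reached further into the gene than away from it, as narrower peaks did. Exactly 1 coding gene started in 759 domains, and 529 of these also held the outermost annotated start of the gene. Of the 529, 439 (83.0%, 79.5% to 86.1%) extended further downstream, with medians of 760 bp upstream and 1542 bp downstream. The share was 82.5% for narrower Ishikawa peaks and 81.4% for narrower T-47D peaks. In T-47D, wide peaks had medians of 498 bp upstream and 1873.5 bp downstream, and 91.3% (82.8% to 96.4%) of 80 reached further downstream. The direction was thus common to peaks of every width, and the wide T-47D peaks were the most one-sided of these groups.

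Gene lists chosen for these lines differed widely in how many members had a broad domain. Of 12204 coding genes with an H3K4me3 peak over a start site in either line, 11.1% had a start site in a domain, with 1.23% in a shared, 9.06% in an Ishikawa-class and 0.951% in a T-47D-class domain. These are the shares against which each list is set. Of 20 luminal breast factors, receptors and keratins, 16 had a peak and 9 of those (56.3%) a domain. By class, 3 were in shared, 3 in Ishikawa-class and 4 in T-47D-class domains, since KRT8 was in 2 classes. The keratin genes KRT8, KRT18 and KRT19 were among the 9, and KRT8 and KRT18 shared a domain. Of 18 endometrial and Müllerian factors, 9 had a peak and 2 (22.2%) a domain, PAX8 and GATA2. Immediate early genes stood at 7 of 20 (35%), HOX genes at 5 of 22 (22.7%), known estrogen-induced genes at 5 of 17 (29.4%), tumour suppressors at 8 of 37 (21.6%) and cytosolic ribosomal protein genes at 19 of 83 (22.9%). Below the share of all genes were the ZNF genes of chromosome 19, at 8 of 216 (3.70%). The writers, erasers and readers of H3K4 methylation stood at 1 of 16 (6.25%), KMT2D, too few genes to set apart from that share. The endometrial and Müllerian, HOX, estrogen-induced and tumour suppressor lists also held too few genes with a peak to be set apart from it. None of 20 adult tissue genes silent in epithelia had a peak.

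Luminal breast genes lay in all 3 classes. KRT8 and KRT18, the simple epithelial keratins, shared a domain of 3907 bp, with widest peaks of 2000 and 1901 bp in Ishikawa and 3088 and 2612 bp in T-47D under DMSO and E2. PGR, the progesterone receptor and an estrogen target, measured 2637 and 2697 bp in Ishikawa and 2227 and 2079 bp in T-47D, the most alike of the list. The AP-2 factors TFAP2C (2753 bp in T-47D, 1197 bp in Ishikawa) and TFAP2A (2160 and 1211 bp) and the keratin KRT19 were in the T-47D class with GATA3. MYB (2814 bp) and GRHL2 (2296 bp) were in the Ishikawa class. With gaps joined, GRHL2 reached 3074 bp in Ishikawa and 3854 bp in T-47D, whereas GATA3 stood at 0 against 19701 bp and PAX8 at 3524 against 0 bp, so the latter pair did not depend on the breaks. ESR1, the estrogen receptor gene, had 1683 and 983 bp over a start site and was no member.

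Most tumour suppressor and immediate early genes had no broad domain. Of those with one, 7 of 8 tumour suppressors and 6 of 7 immediate early genes started in an Ishikawa-class domain, beside 1106 of 1359 coding genes in all. Among tumour suppressors, CDKN1B (2987 and 671 bp), BRCA1 (2495 and 890 bp), SETD2 (2458 and 536 bp), FBXW7 (2375 and 564 bp) and PTCH1 (2221 and 1075 bp) were of this class, with the first value from the Ishikawa and the second from the T-47D peak over a start site. With gaps joined, BRCA1, FBXW7 and PTCH1 reached 2000 bp in T-47D, and CDKN1B and SETD2 did not. Among immediate early genes, JUN was shared, in a domain of 4115 bp whose widest peaks were 2785 bp in Ishikawa and 2293 bp in T-47D. No T-47D DMSO peak lay over a coding start site of JUN. MYC had 3406 bp in Ishikawa and 1818 bp in T-47D, and 4314 and 5314 bp with gaps joined. FOS (2082 bp), FOSB (2118 bp), JUNB (2202 bp) and KLF10 (2617 bp) were Ishikawa-class, and IER2 started in 2 domains, a shared one of 2893 bp and an Ishikawa-class one of 2233 bp. With gaps joined, 12 immediate early genes were shared, 3 Ishikawa-class and 4 T-47D-class, and 12 tumour suppressors were shared, 9 Ishikawa-class and 1 T-47D-class. Domains are more numerous with gaps joined. The share of all coding genes in them was not counted, so these counts have no background.

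HOX and ribosomal protein genes lay in different classes. HOXC6 and HOXC9 (3876 bp), HOXC11 (3435 bp) and HOXC10 (2773 bp) gave the T-47D class 4 HOX genes, where the widest Ishikawa peaks in these domains were 394, 588 and 440 bp. HOXB6 (2048 bp) was Ishikawa-class, with no T-47D peak in its domain. Joining gaps left this difference in place, with 0 bp in Ishikawa and 7547 bp in T-47D at HOXC6, 440 and 7547 bp at HOXC10, and 2598 and 0 bp at HOXB6. Of the 19 ribosomal protein genes, 5 were shared (RPL8, RPL10A, RPL12, RPL27A and RPL28), 12 Ishikawa-class and 2 T-47D-class. RPL12 measured 2353 bp in Ishikawa and 3750 bp in T-47D, and RPL8 2317 and 3278 bp.

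TAF1 and SIN3A lay at nearly every domain of Ishikawa. TAF1 DMSO peaks met 98.3% (94.2% to 99.8%) of shared and 99.2% (98.4% to 99.6%) of Ishikawa-class domains, against 66.7% of all Ishikawa H3K4me3 peaks, and 73.6% of T-47D-class domains. Under E2 the shares were 97.5%, 97.1% and 65.0%, against 56.1%. SIN3A in stripped media met 99.2% (95.5% to 100%) of shared, 99.2% (98.4% to 99.6%) of Ishikawa-class and 75.7% of T-47D-class domains, against 63.9%, and in full media 90.9%, 91.4% and 55.0%, against 45.4%. Of the 1099 domains that were broad in Ishikawa, 1081 carried both TAF1 DMSO and SIN3A, and 10 lacked TAF1. How many of all Ishikawa H3K4me3 peaks carried both was not counted. T-47D-class domains, which were narrower or unmarked in Ishikawa, stood nearer to the share of all peaks.

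LSD1, c-JUN, MAX and RARA were less frequent, but also met more shared and Ishikawa-class domains than all peaks, except that the interval of RARA E2 in the shared class (8.40% to 21.5%) took in the share of all peaks. LSD1 met 47.9% (38.8% to 57.2%) of shared, 47% (43.9% to 50.2%) of Ishikawa-class and 18.6% of T-47D-class domains under DMSO, against 21.7% of all peaks, and 89.3%, 85.0% and 55.0% under E2, against 46.0%. The AP-1 subunit c-JUN met 21.5%, 21.3% and 7.86% under DMSO, against 7.80%, and 77.7%, 76.5% and 43.6% under E2, against 38.1%. MAX, the partner of MYC on E-boxes, met 32.2%, 34.9% and 10.7% under DMSO, against 9.56%, and 13.2%, 18.4% and 4.29% under E2, against 5.48%. With −log10 q of at least 20, the excess of MAX DMSO over all peaks was 7.71 points, beside 25 points. RARA E2 met 14.0%, 23.9% and 4.29%, against 8.74%. In the T-47D class, the intervals took in the share of all peaks for LSD1 DMSO (12.5% to 26%), c-JUN DMSO (3.99% to 13.6%), MAX DMSO (6.12% to 17.1%), and MAX E2 and RARA E2 (both 1.59% to 9.09%). The c-JUN E2 share of this class, 43.6%, was also within counting error of the 38.1% of all peaks. The E2 lists of LSD1 and c-JUN were longer throughout (18384 against 8618 peaks and 18311 against 3768), and each is 1 library.

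**Figure D3:**
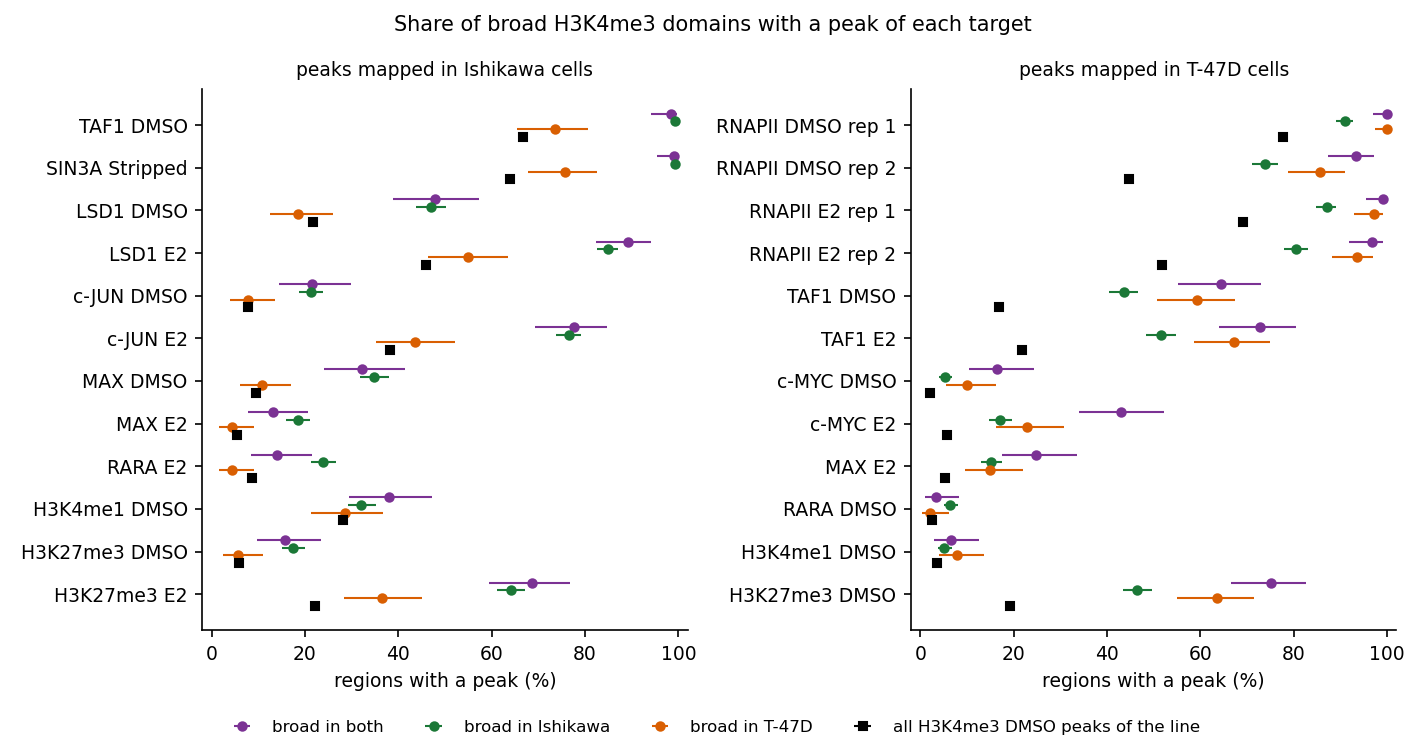
Share of broad domains of each class (coloured points, with exact 95% intervals for counting error) that met a peak of the lists named on the y axis, mapped in Ishikawa (left) or T-47D (right), with the share of all H3K4me3 DMSO peaks of that line as black squares. In Ishikawa, TAF1 and SIN3A in stripped media met over 98% of shared and Ishikawa-class domains.

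In T-47D the lists of TAF1, SIN3A, MAX and LSD1 were shorter than in Ishikawa, and those of c-MYC longer. TAF1 met 64.5% (55.2% to 73.0%) of shared, 43.6% (40.4% to 46.7%) of Ishikawa-class and 59.3% (50.7% to 67.5%) of T-47D-class domains under DMSO, against 16.8% of all T-47D peaks, and 72.7%, 51.6% and 67.1% under E2, against 21.8%. c-MYC met 16.5%, 5.21% and 10.0% under DMSO, against 2.02%, and 43.0% (34.0% to 52.3%), 17.1% (14.8% to 19.6%) and 22.9% (16.2% to 30.7%) under E2, against 5.64%. With peaks of −log10 q of at least 20 alone, the excess of c-MYC E2 at the 261 domains over all peaks was 3.82 points, beside 26.5 points with all peaks of the list. MAX E2 met 24.8%, 15.1% and 15%, against 5.30%. Of the 84 T-47D domains with c-MYC E2, 34 also carried MAX E2, its partner, of 51 with MAX E2 among 261. How many of all T-47D H3K4me3 peaks carried both was not counted. SIN3A in full media met 9.09%, 6.85% and 7.14%, against 1.88%. RARA met 3.31%, 6.44% and 2.14% under DMSO, against 2.53%, and 2.48%, 5.83% and 2.86% under E2, against 2.30%, so that only the Ishikawa class stood above its background, with intervals from 4.99% and 4.44%. The libraries labelled c-JUN met 99.2%, 87.3% and 97.9% under DMSO, against 65.6%, and 100%, 91.1% and 97.9% under E2, against 67.4%, values close to those of RNAPII.

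Within each class, the domains with peaks of the most targets of their own line lay at genes of varied roles. In the shared class GSE1, which codes for a subunit of a histone deacetylase complex, SLC38A1, a glutamine transporter gene, and the pair RAPGEF3 and SLC48A1 each had 7 of 9 possible Ishikawa targets and 5 of 10 possible T-47D targets in the lists without E2. This class was ranked on both lines together, and its largest number of T-47D targets alone was 6. At SLC38A1, TAF1 DMSO covered 2528 bp and SIN3A in stripped media 2549 bp in Ishikawa, while T-47D RNAPII covered 2787 and 1065 bp under DMSO and 3026 and 1846 bp under E2. In the T-47D class TRIL, GPRC5C and TFRC, the transferrin receptor gene, had 6 T-47D targets each, a number that some domains of the other classes also reached. At TFRC, whose domain of 2078 bp was in the T-47D class with 1790 bp in Ishikawa, the fold enrichment of TAF1 DMSO was 59.9 and of SIN3A in stripped media 60.2 in Ishikawa.

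Length alone gives a domain more room for a peak, so windows of 500 bp at the H3K4me3 summit were also compared. TAF1 DMSO met the window of 96.4% (95.1% to 97.4%) of 1100 wide Ishikawa peaks, 66.3% of narrower ones and 67.4% of all. SIN3A in stripped media met 97.1% of wide and 63.3% of narrower windows, against 64.5% of all, and c-JUN E2 60.9% (58.0% to 63.8%) and 35.6%, against 36.5%. In T-47D, TAF1 DMSO met 37.5% (31.7% to 43.7%) and 15.7%, against 15.9%, and c-MYC E2 17.6% (13.2% to 22.8%) and 5.23%, against 5.34%. Among peaks over a coding start site the gap was smaller, at 96.5% and 84.7% for Ishikawa TAF1, 98.1% and 84.1% for SIN3A, 41.9% and 27.8% for T-47D TAF1 and 20.2% and 9.08% for c-MYC. Nor was there a step at 2000 bp. T-47D TAF1 met 9.32% of windows of peaks under 500 bp, 21.0% from 500 bp, 31.4% from 1000 bp, 38.2% from 1500 bp and 37.5% from 2000 bp, and Ishikawa TAF1 41.1%, 74.8%, 91.1%, 95.9% and 96.4%.

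H3K4me1 met more Ishikawa domains than all peaks under DMSO, but fewer wide than narrower summit windows. It met 38.0% (29.3% to 47.3%) of shared, 32.1% (29.2% to 35.1%) of Ishikawa-class and 28.6% (21.3% to 36.8%) of T-47D-class domains in Ishikawa DMSO, against 28.2% of all peaks, and 31.4%, 26.4% and 26.4% under E2, against 24.9%. In the summit windows it met 9.91% (8.21% to 11.8%) of wide and 24.9% of narrower peaks, against 24.4% of all, but over coding start sites 3.54% and 4.12%, within counting error of each other. In T-47D it met 6.61%, 5.11% and 7.86% under DMSO, against 3.51%, and 3.31%, 2.56% and 2.14% under E2, against 1.34%. The DMSO interval of the shared class (2.90% to 12.6%) took in the share of all peaks. Under E2 the shared and T-47D classes were also within counting error of the share of all peaks. In Ishikawa, position inside the domain separated the marks. Averaged over both ends of the 1100 wide Ishikawa peaks, TAF1 DMSO covered 86.3% of the stretch from 1000 to 750 bp inside the edge, 25.5% of the last 250 bp inside and 6.0% of the first 250 bp outside. SIN3A covered 83.2%, 24.1% and 5.1%. H3K4me1 covered 8.1%, 17.8% and 11.3% of the same stretches, and so was highest at the rim. Peaks from 1000 to 1999 bp showed the same order, with 36.3% for TAF1 and 11.0% for H3K4me1 in the last 250 bp inside. The 261 wide T-47D peaks did not show this order. There TAF1 DMSO covered 11.9% from 1000 to 750 bp inside the edge, 8.26% from 500 to 250 bp inside and 12.6% of the last 250 bp inside, and H3K4me1 covered 1.49% of the last 250 bp inside and was highest outside, at 2.58% from 750 to 1000 bp.

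**Figure D4:**
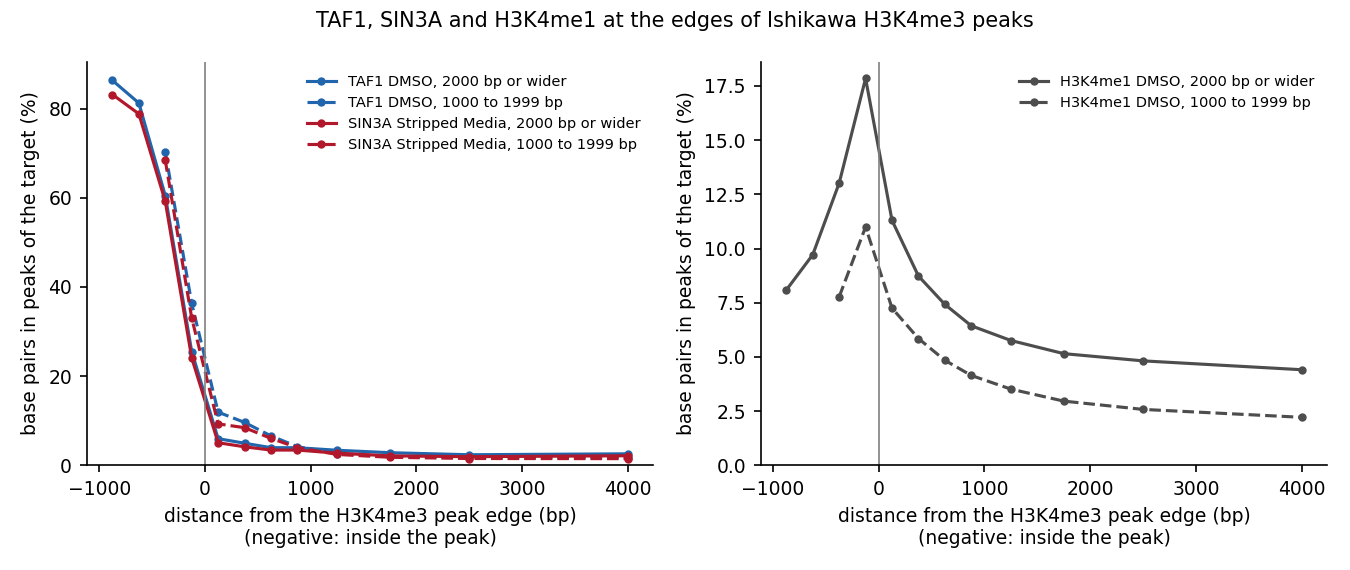
Share of base pairs covered by peaks of each target (y axis, %) by distance from the edge of the H3K4me3 peak (x axis, bp, negative inside the peak), for wide peaks and for peaks of 1000 to 1999 bp. In Ishikawa, TAF1 and SIN3A decline toward the edge and H3K4me1 is highest within 250 bp inside it.

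In the 3 lists counted by class, H3K27me3 peaks met more domains than all peaks, except at T-47D-class domains in Ishikawa DMSO. In Ishikawa they met 15.7% (9.73% to 23.4%) of shared, 17.5% (15.2% to 20%) of Ishikawa-class and 5.71% of T-47D-class domains under DMSO, against 5.95%, and 68.6%, 64.2% and 36.4% under E2, against 22.2%. In T-47D DMSO they met 75.2% (66.5% to 82.6%), 46.5% (43.4% to 49.7%) and 63.6% (55.0% to 71.5%), against 19.3%. These shares are not corrected for the greater length of the domains, which leaves more room for a peak. The peaks were narrow, with medians of 238, 328 and 317 bp in these 3 lists and the widest at 2170 bp. Since 81.7% to 96.4% of them lay on H3K4me3 peaks, whether they report Polycomb at the domains was not tested. For H3K36me3, a mark of transcribed gene bodies, the list held 114 peaks. One lay in the body (from 2000 bp past the start) of 10 of 1228 genes with a domain broad in Ishikawa (0.814%, 0.391% to 1.49%), of 69 of 10435 genes with a narrower peak (0.661%) and of 0.677% of both together, a difference not detectable at this list length.

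RNAPII was mapped in 4 T-47D libraries and lay at almost all domains of that line. It met 100% of shared and 100% of T-47D-class domains in DMSO replicate 1 (77.7% of all peaks), 93.4% and 85.7% in DMSO replicate 2 (44.7%), 99.2% and 97.1% in E2 replicate 1 (69.0%), and 96.7% and 93.6% in E2 replicate 2 (51.7%). Ishikawa-class domains stood at 91.0%, 73.9%, 87.1% and 80.6% in that order. Of 261 domains broad in T-47D, 232 carried RNAPII in all 4 lists, and 0 carried it in both lists of one treatment and neither of the other. These joint counts were not made over all T-47D H3K4me3 peaks, so they have no background.

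The length covered by RNAPII did not separate the treatments. Over the 261 domains it was 73.7% and 35.1% of base pairs in DMSO replicates 1 and 2, and 65.8% and 42.3% in E2 replicates 1 and 2. Both E2 values lay between the DMSO values. The means were 54.4% ± 27.3 under DMSO and 54.1% ± 16.6 under E2 (SD, n = 2), a difference of -0.355 points with p = 1 by an exact two-sided permutation test over 6 assignments, in which the smallest possible p is 0.333. Without DMSO replicate 1 the difference was 18.9 points and without DMSO replicate 2 it was -19.6, so single libraries set its sign. The covered share of narrower T-47D peaks was lower than that of the domains in each library, at 61.9%, 25.3%, 47% and 30.1%. By class, the means under DMSO and E2 were 57.5% and 54.4% in shared, 44.1% and 40.6% in Ishikawa-class and 51.2% and 53.7% in T-47D-class domains, each with p = 1 in the same exact test.

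**Figure D5:**
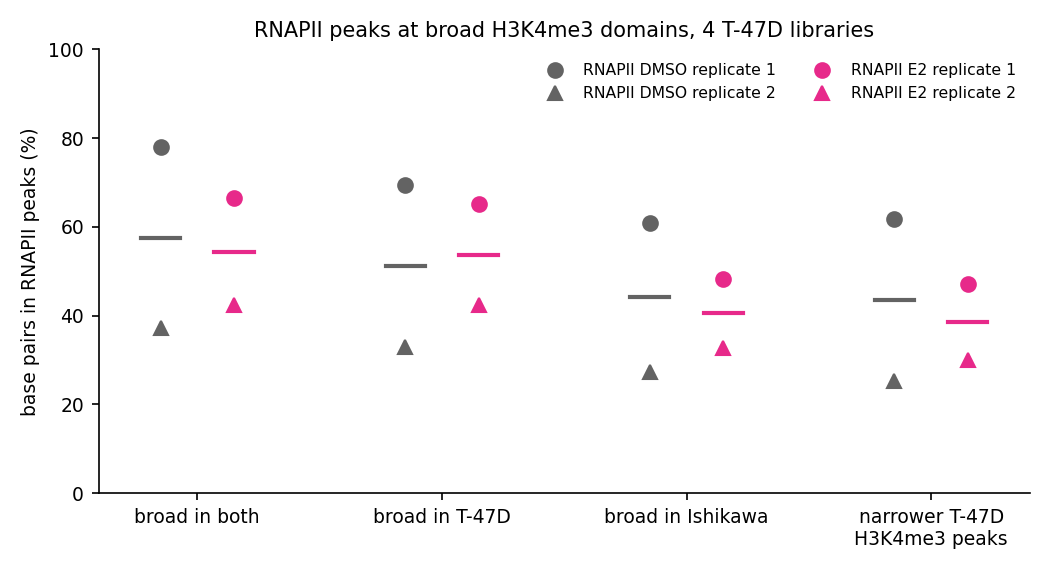
Share of base pairs (y axis, %) of each class of broad domains and of narrower T-47D H3K4me3 peaks that RNAPII peaks covered in each of the 4 T-47D libraries (points), with a line for the mean of the 2 libraries of a treatment. In every group both E2 points lie between the DMSO points, as at narrower peaks, where they are 47% and 30.1% against 61.9% and 25.3%.

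Under E2, width was kept more often in Ishikawa. A peak of 2000 bp or wider met 778 of 1099 Ishikawa domains in the E2 list (70.8%, 68.0% to 73.5%), against 4.31% of all DMSO peaks, with 109 of 121 shared and 669 of 978 Ishikawa-class domains. In T-47D it met 111 of 261 (42.5%, 36.5% to 48.8%), against 0.894%, with 46 of 121 shared and 65 of 140 T-47D-class domains. No domain lost the mark, since each had some E2 peak of its line. Because members were selected on DMSO width, some loss is built in: wide peaks of the E2 lists looked up under DMSO were wide there in 74.1% of 1049 in Ishikawa and 55.6% of 196 in T-47D. The median of the widest peak went from 2251 to 2164 bp in Ishikawa and from 2274 to 1904 bp in T-47D. Covered base pairs went from 98.7% to 95.1% and from 96.5% to 87.8%, so most of the mark remained and the peaks were broken. In T-47D 168 of 261 domains were in 2 or more peaks under E2, with a median gap of 128 bp, against 39 under DMSO. In 63 of the 168, a coding start site lay in a gap, and RNAPII E2 replicates 1 and 2 covered 78.7% and 59.7% of gap length, beside 65.8% and 42.3% of the domains. In Ishikawa 294 of 1099 were broken, with a median gap of 98 bp, against 6 under DMSO. Breaks under DMSO are few by the selection. At Ishikawa-class domains, which T-47D DMSO width did not select, T-47D H3K4me3 was broken at 785 of 978 under DMSO and 768 under E2, and at T-47D-class domains Ishikawa H3K4me3 was broken at 25 of 140 under either.

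By the total length of the H3K4me3 peaks that met a domain, the highest values under E2 came from single E2 peaks that ran past the domain and over neighbouring DMSO peaks. In Ishikawa, 2 domains of ADGRG1, an adhesion receptor gene, at chr16:57652900-57655887 and chr16:57655956-57658918, were 2988 and 2963 bp peaks under DMSO and met 1 peak of 6570 bp under E2, which is 619 bp more than their sum of 5951 bp. The domain of 3406 bp at chr10:119304757-119308162 in EMX2, a Müllerian and brain homeobox gene, met an E2 peak of 6819 bp that overlapped 4 DMSO peaks with a sum of 6292 bp. T-47D had no H3K4me3 peak and no RNAPII peak in this domain. In T-47D, 3 neighbouring domains in GATA3, at chr10:8096685-8099168, chr10:8099313-8101704 and chr10:8101794-8104284, were peaks of 2484, 2392 and 2491 bp under DMSO and met 1 peak of 7570 bp under E2, which is 203 bp more than their sum of 7367 bp. At these places peaks that were separate in the DMSO list were 1 peak in the E2 list. T-47D RNAPII covered at least 2462 bp of the first of these in each of the 4 libraries.

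The domains below were among those whose total was lowest under E2 relative to DMSO. In Ishikawa, the domain of AURKA and CSTF1, a mitotic kinase and an mRNA cleavage factor, went from 2673 to 2020 bp and that of ARF4, a Golgi GTPase, from 2323 to 1717 bp. In T-47D, the domain of PRRT1 and PPT2 went from 2213 to 1298 bp, that of TNS2 from 3732 to 2833 bp and that of BCL9L from 5568 to 4672 bp. Each of these rests on 1 library per treatment.

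Base composition followed start sites more than width. The observed over expected CpG ratio of the 300 bp summit window had a median of 0.750 (0.740 to 0.762) in wide and 0.667 (0.662 to 0.671) in narrower Ishikawa peaks. Over coding start sites both were 0.767. In T-47D the medians were 0.667 (0.637 to 0.699) and 0.660 (0.656 to 0.664), and over coding start sites 0.695 (0.656 to 0.717) and 0.742 (0.736 to 0.746). The order thus turned in T-47D, where wide peaks at coding start sites were the CpG-poorer. Wide peaks with no coding start site had 0.490 in Ishikawa and 0.549 in T-47D.

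Short motifs were searched in the same windows on both strands. The GC box GGGCGG, bound by SP factors, was in 50% (47% to 53.0%) of wide and 44.6% of narrower Ishikawa windows, and in 36.4% (30.6% to 42.6%) and 41.8% of T-47D windows. Over coding start sites of Ishikawa it was in 52.4% (49.2% to 55.6%) of wide and 55.4% of narrower windows, within counting error of each other. Over coding start sites of T-47D it was in 37.4% (30.8% to 44.5%) of wide and 49.7% of narrower windows, and the ETS element CCGGAAG in 4.93% (2.39% to 8.87%) and 8.68%, within counting error. The AP-1 element TGACTCA was in 2.82% of wide and 4.16% of narrower Ishikawa windows, but in 2.81% and 2.08% over coding start sites, and in 3.83% and 3.30% of T-47D windows. The E-box CACGTG, the site of MYC and MAX, was in 6.09% and 6.62% in Ishikawa and 7.66% and 6.49% in T-47D. None of these motifs contains another, and a match shows only that the letters are present. The share of CACGTG in these windows thus differed by less than counting error. The shares of MAX and c-MYC given by class are of whole domains, which are longer than these windows, so the values cannot be compared directly.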

How the data were processed

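The peak lists of 45 ChIP-seq libraries were used; 4 input samples had no list and were not analysed here. The authors aligned reads to hg19 with Bowtie 1.1.2 and called peaks for each library separately with MACS2 2.1.0.20140616. The deposited lists give, for each peak, a score, the fold enrichment at the summit, and both its p-value and its q-value as −log10. The smallest deposited −log10 p was 10.0, so weaker enrichment is not in the lists, and wide enrichment can be split into several narrow peaks. Read depth is not given by the lists, whose lengths ran from 2 to 46282 peaks.

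Widths, overlaps (1 bp or more), covered base pairs and sequence counts were computed in Python 3.11.15 with numpy 2.4.6, pandas 2.3.3, scipy 1.17.1 and pysam 0.24.0, and plotted with matplotlib 3.10.9. Start sites came from GENCODE 44 on GRCh37. Lists under 500 peaks (9 of 45) were not used for shares by class. Some of them entered the H3K36me3 comparison, the flagged results and the number of targets per domain. In T-47D that number also counts the list labelled c-JUN. Groups came from the sample labels. The counting of overlaps was checked on simulated data. RNAPII was tested with an exact two-sided permutation test. Nothing states that replicates came from separate cultures, so its p measures the spread between these libraries, which may be technical.

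The members and gene lists were chosen with earlier results of these data known. Named genes were the 5 widest domains per class with a protein-coding start, the widest per class without a start, the 3 largest gains and losses per line in the total length of the H3K4me3 peaks that met a domain, the 3 per class with the most targets, and up to 6 genes per list by width. Outside these rules, some genes were also named at domains with no peak in the other line and at the peaks nearest the width limit. Lineage markers and further list members were named as well. Sequences were taken for the widest domain with and without a start per class, leaving out chromosome 8. Some genes and 1 sequence that these rules choose are not reported here. The alternatives were a minimum width of 3000 bp, the widest 5% of peaks, gaps of up to 500 bp joined, domains chosen in the E2 lists, −log10 q of at least 20, a 50% overlap, a start pad of 250 bp, a window of 1000 bp and each RNAPII library left out. Joining gaps for the gene lists was added after seeing the data.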

Additional observations from a re-analysis of the deposited data

Results flagged for a closer look

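The H3K27me3 lists went opposite ways in the lines at broad domains. In Ishikawa the share of domains broad in that line with an H3K27me3 peak was 17.3% under DMSO and 64.7% under E2, a difference of 47.4 points. Over all Ishikawa H3K4me3 peaks the shares were 5.95% and 22.2%, in the same direction, from lists of 2199 and 6992 peaks. In T-47D the share was 69.0% under DMSO and 0% under E2 (0 of 261, which allows up to 1.15% for counting error), a difference of −69.0 points, where the E2 list held 107 peaks in all. The T-47D DMSO list held 6305 peaks and met 19.3% of all T-47D H3K4me3 peaks.

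MAX peaks also went opposite ways. In Ishikawa 34.6% of domains met a MAX peak under DMSO and 17.8% under E2, a difference of −16.7 points. Over all Ishikawa H3K4me3 peaks the shares were 9.56% and 5.48%, also lower under E2. In T-47D the share was 3.07% under DMSO, from a list of 199 peaks, and 19.5% under E2, a difference of 16.5 points. The T-47D MAX E2 list held 1492 peaks and met 5.30% of all T-47D H3K4me3 peaks. With 1 library per line and treatment, neither difference between the lines was tested.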

How the results depend on the processing

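Peak lists keep only what passed the caller's threshold, so an absent peak is not absent signal, and the classes depend on width and on how a list splits enrichment. The cause of the moves below was not tested, except that joining gaps widens peaks and a stricter −log10 q leaves fewer peaks. The half-overlap choice and the stricter q left the class counts within 1.5 times those reported.

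With a minimum of 3000 bp, the shared, Ishikawa and T-47D classes held 9, 96 and 21 domains. The share with a coding start was 81.7%, the T-47D share wide under E2 20%, and the excess of Ishikawa TAF1 over all peaks 33.3 points. The CpG difference was 0.0286 in Ishikawa and reversed in T-47D (−0.0744). With the widest 5% of each list, the shared and T-47D classes held 473 and 1065 domains, the coding start share was 82.2%, the T-47D share wide under E2 52.5%, the T-47D excess 37.1 points for TAF1 and 17.6 for c-MYC E2, and the T-47D CpG difference 0.0537.

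With gaps of up to 500 bp joined, those classes held 1361 and 861 domains and the coding start share was 88.2%. The shares wide under E2 were 89.3% in Ishikawa and 70.8% in T-47D. The excess was 27.6 points for Ishikawa SIN3A, 26 for Ishikawa TAF1, 33.5 for T-47D TAF1 and 14.6 for c-MYC E2. The CpG differences were 0.0979 and 0.0489. Of AP-1 and immediate early genes, 3 were Ishikawa-class, 4 T-47D-class and 12 shared. Of luminal genes these numbers were 1, 8 and 7, and of tumour suppressors 9, 1 and 12. The share of all coding genes in joined domains was not counted beside them.

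With domains chosen in the E2 lists, the shared class held 71 domains. The shares also wide under DMSO were 74.1% in Ishikawa and 55.6% in T-47D. The excess was 37.7 points for Ishikawa SIN3A, 34.2 for Ishikawa TAF1, 52.0 for T-47D TAF1 and 20.7 for c-MYC E2, and the T-47D CpG difference reversed (−0.00790). A start pad of 250 bp gave a coding start share of 88.4%.

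With −log10 q of at least 20, the excess was 33.9 points for Ishikawa SIN3A, 28.9 for Ishikawa TAF1, 30.8 for T-47D TAF1 and 3.82 for c-MYC E2, and reversed for T-47D H3K4me1 (−0.0474), the 1 reversal among the other targets, where 18 values moved and 17 did not. In summit windows the difference was −3.88 points for Ishikawa H3K4me1, 26.5 for Ishikawa TAF1, 15 for T-47D TAF1 and 1.60 for c-MYC E2. H3K36me3 in gene bodies reversed, to −0.0389 points. A half-overlap gave 39.6 points for SIN3A and 37.3 for TAF1 in Ishikawa, and a window of 1000 bp 26.1 points for Ishikawa TAF1.

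Leaving out 1 RNAPII library moved the E2 minus DMSO coverage difference between −19.6 and 18.9 points. It reversed without DMSO replicate 1 (18.9) and without E2 replicate 2 (11.4). The replicate block gave −0.355 points with an exact sign-flip p of 1, where 0.5 is the smallest possible. Over 261 domains, the coverage difference between replicates 1 and 2 under DMSO correlated at 0.511 with that under E2. With 2 pairs and no label that pairs them, same-numbered libraries share only a number.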

Other observations

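Broad domains were unevenly spread over the chromosomes. Chromosome 12 held 98 Ishikawa-class domains, 10.0% of that class, against 5.25% of all Ishikawa H3K4me3 peaks. Chromosome 17 held 22 T-47D-class domains, 15.7% against 6.36% of T-47D peaks, and chromosome 11 held 17, 12.1% against 6.04%. The X chromosome held 6 Ishikawa-class domains, 0.613% against 2.71% of Ishikawa peaks, and 1 T-47D-class domain, 0.714% against 2.56%. Copy number of these chromosomes was not measured here.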
